A study of Mus musculus with 8 samples.

Results

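Expression of the small heat shock protein genes, the co-chaperone gene *Bag3* and the inducible HSP70 genes was examined in tibialis anterior (TA) muscles of *mdx5cv* and WT mice. Members were chosen by gene symbol, and the 10 genes are *Hspb1*, *Hspb2*, *Hspb3*, *Hspb6*, *Hspb7*, *Hspb8*, *Cryab*, *Bag3*, *Hspa1a* and *Hspa1b*. All 10 were found among the 55401 genes of the table. The dataset is bulk RNA-seq of whole TA muscles, 4 labelled *mdx5cv* and 4 labelled WT, all from untreated male mice that were 6 mo old and of the C57/Bl6 strain. The *mdx5cv* mouse is a model of Duchenne muscular dystrophy that carries a germline mutation in *Dmd*, the dystrophin gene, so the fibers and all other cells of the muscle carry it. The labels do not say whether each muscle came from a different mouse, so the p-values measure the spread between these muscles only.

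Small heat shock proteins are chaperones that hold unfolding proteins and keep them from aggregating, without using ATP. Muscle makes many of them, since the Z-disc and the desmin network are bent and pulled at each contraction. BAG3 ties HSPB8 to HSP70 and passes damaged Z-disc proteins such as filamin C to autophagy, a route named chaperone-assisted selective autophagy. HSPA1A and HSPA1B are the HSP70 proteins that cells make under stress, under the control of heat shock factor 1 (HSF1), whereas HSPA8 is the HSP70 protein made at all times.

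Each library held between 13175524 and 14921057 reads on genes, as recovered from the deposited normalized counts, which are reads divided by a size factor for the library. The size factors ran from 0.873 to 0.944 in WT and from 1.06 to 1.25 in *mdx5cv*, and the mitochondrial ribosomal RNAs held 25.9% to 33.2% and 23.0% to 28.8% of the reads. *Dmd* itself had normalized counts of 6169 to 8155 in WT and 3461 to 4400 in *mdx5cv*, without overlap. A pair of libraries stood apart from their groups. WT replicate 2 was set off from its group by more than Dixon's critical value at 421 of the 13677 genes tested and *mdx5cv* replicate 4 at 455, against 98 to 178 in the other 6 muscles. Results on the members are therefore also given without WT replicate 2 where that ended or made a call or moved a value clearly.

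The members sit on 6 autosomes (coordinates on GRCm38, GENCODE M21). *Hspb1* (chr5:135887919-135889563, plus strand) and *Hspb8* (chr5:116408491-116422864, minus strand) are on chromosome 5, and *Hspb6* (chr7:30552178-30555443, plus strand) and *Bag3* (chr7:128523616-128546981, plus strand) are on chromosome 7. *Hspb7* is at chr4:141420779-141425311 on the plus strand and *Hspb3*, which has a single exon, at chr13:113662896-113663676 on the minus strand. *Cryab* (chr9:50751325-50756636, plus strand) and *Hspb2* (chr9:50751078-50752354, minus strand) lie head to head with 252 bases of exon in common, so that without strand their reads could not be told apart there. *Hspa1a* (chr17:34969190-34972156) and *Hspa1b* (chr17:34956436-34959238), each with 1 exon block and both on the minus strand, start 12918 bases from each other. Of the 100-base windows of their transcripts, 48.6% for *Hspa1a* and 49.9% for *Hspa1b* are also found in the other gene of the pair or in their neighbour *Hspa1l*, which makes the separate counts of the pair uncertain.

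The letters to which HSF1 binds are inverted repeats of GAA, and the promoters of the members were searched for them in the RefSeq table of GRCm38.p6, from 250 bases before to 50 bases after each start. The table holds 8 of the 10 members. The head-to-head pair of units GAANNTTC, which reads the same on both strands, was in a promoter of 7 of these 8 genes, the exception being *Hspb7*. It was in a promoter of 2442 of all 27025 genes, and in 7.86% of all 32851 promoters. The tail-to-tail pair TTCNNGAA was in none of the members' promoters and in 8.52% of all. The heat shock element of 3 alternating units, which contains both pairs and was searched on both strands, was in none of the members' promoters and in 0.603% of all. Windows of 30 bases from 5 of these genes are shown, because they hold a feature that the inducible pair has in common with small heat shock protein genes. They run 5′ to 3′ on the strand of the gene, and capitals mark the matching letters.
Hspa1a: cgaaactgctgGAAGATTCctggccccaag
Hspa1b: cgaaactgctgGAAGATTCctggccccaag
Hspb1: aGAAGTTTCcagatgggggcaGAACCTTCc
Hspb6: aagtaattattGAAGTTTCtaaataaggaa
Hspb3: ctccccgaatgGAATTTTCaggcagaggga
The windows of *Hspa1a* (chr17:34972242-34972271) and *Hspa1b* (chr17:34959324-34959353) are identical, and in both the match begins 104 bases before the start. The *Hspb1* window (chr5:135887801-135887830) holds 2 matches, the first of them 117 bases before the start. That of *Hspb3* (chr13:113663882-113663911) begins its match 224 bases before the start, and these 4 windows lie outside the genes. The *Hspb6* window (chr7:30553170-30553199) belongs to the second of its RefSeq starts and lies in an intron of the longer gene model. In *Hspb8* and *Bag3* the match falls after the start, at 2 and 42 bases. A match of letters is a description of the sequence, and no binding was measured here.

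At the mRNA level most of the members did not pass the test between *mdx5cv* and WT muscles. Of the 10 genes, 1 was called at an adjusted p under 0.05 in limma, and it was lower in *mdx5cv*. Over all 13677 genes tested, 40.9% were called, 20.1% as lower and 20.9% as higher. On the recovered reads, edgeR and DESeq2 called 40.6% and 31.1% of the genes they tested and, of the members, *Hspb8* alone. None of the members reached an absolute log2 fold change of 1 with an adjusted p under 0.05, which 13.6% of all genes did. The median log2 fold change was -0.14 for the members and 0.00 for all genes tested, with 5 members above 0 and 5 below. Fold changes are on the scale of log2(normalized count + 1), where the change of weakly expressed genes comes out too small. All 10 members reached the minimum for the test, a mean of 10 normalized counts over the 8 muscles.

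**Figure D1:**
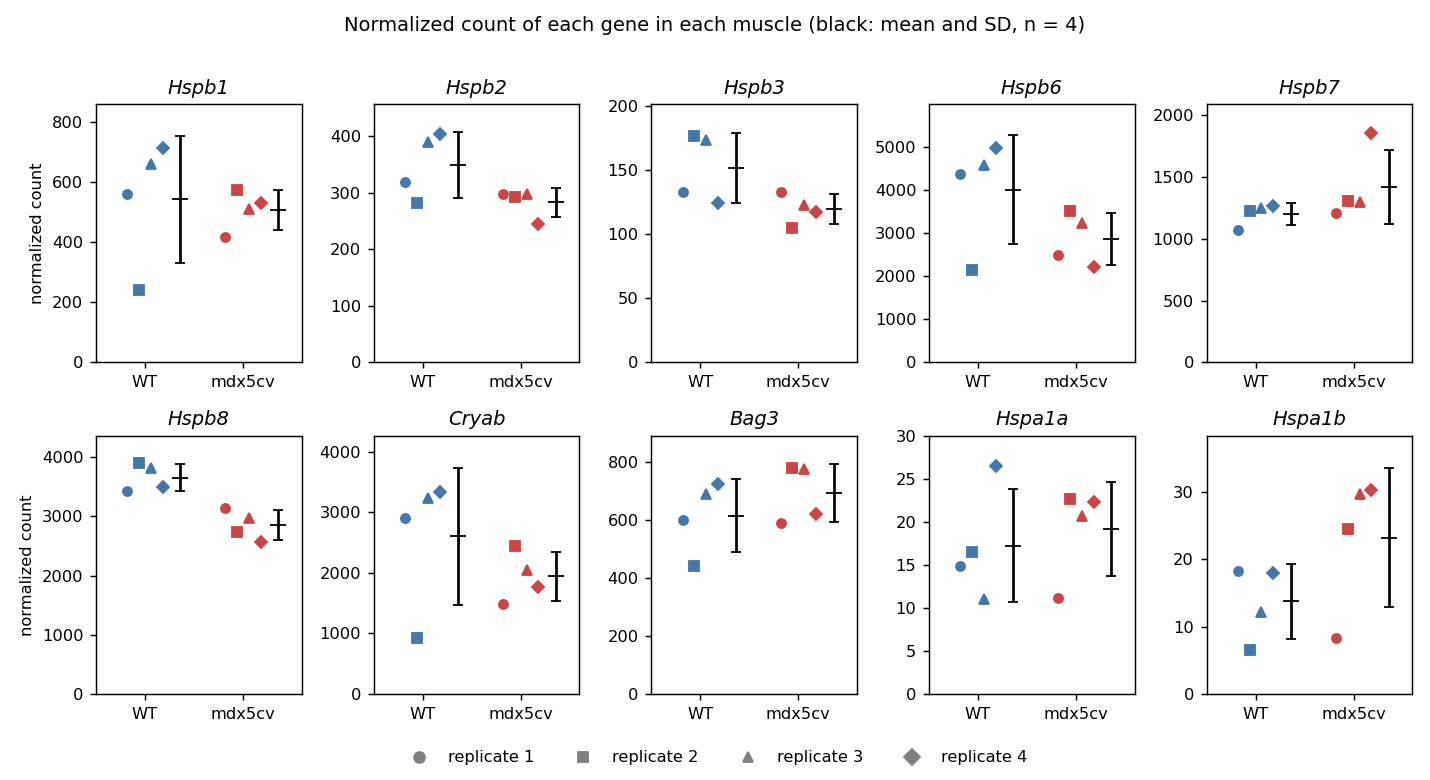
Normalized count of each of the 10 genes in each muscle (vertical axis from 0), with WT in blue, *mdx5cv* in red, a marker shape for each replicate number, and the mean and SD of the 4 muscles in black. *Hspb8* is the 1 gene of the 10 in which the groups do not overlap, and WT replicate 2 (blue square) lies far under the other WT muscles for *Cryab*, *Hspb1* and *Hspb6*.

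*Hspb8*, the small heat shock protein that BAG3 holds, was the member that was called. Its normalized counts were 3422, 3898, 3818 and 3495 in WT replicates 1 to 4, and 3139, 2732, 2971 and 2572 in *mdx5cv* replicates 1 to 4. The lowest WT muscle was above the highest *mdx5cv* muscle, a separation that was found for 40.1% of all genes tested and, with *mdx5cv* lower, for 19.8%. The level in *mdx5cv* was 0.779 of that in WT (95% interval 0.669 to 0.908), a log2 fold change of -0.36 with a standard error of 0.10 and an adjusted p of 0.0129 in limma. Leaving out each muscle in turn kept it between -0.41 and -0.31, with an adjusted p of at most 0.0439. The call depends on the scaling. When the libraries were brought to equal totals rather than divided by the size factors, the log2 fold change of *Hspb8* was -0.00 (adjusted p = 0.989), while the median of all genes moved to 0.36, and over its 19 alternatives the adjusted p ranged from 0.00169 to 0.989. In bulk tissue, fewer fibers and less mRNA per fiber cannot be told apart.

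*Bag3*, whose protein is the scaffold of the HSPB8 complex, was not called. The normalized counts of *Bag3* were 601, 442, 689.9 and 725 in the WT muscles and 591, 780.2, 775 and 622 in the *mdx5cv* muscles. The groups overlapped, with WT replicate 2 the lowest of all 8 muscles and *mdx5cv* replicates 2 and 3 the highest. *Bag3* was at a log2 fold change of 0.19 with a standard error of 0.16 (adjusted p = 0.364), and the interval ran from -0.15 to 0.52. With equal totals *Bag3* rose by 0.54 (adjusted p = 0.0155), where the median of all genes was 0.36, and without WT replicate 2 it was at 0.04 (adjusted p = 0.842). These are the lowest and highest adjusted p of *Bag3* over its 19 alternatives.

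A ratio of 2 genes within a muscle does not depend on the size factor. The log2 ratio of *Bag3* to *Hspb8* was -2.51, -3.14, -2.47 and -2.27 in WT and -2.41, -1.81, -1.94 and -2.05 in *mdx5cv*. It was higher in *mdx5cv* by 0.55 (standard error 0.23), but *mdx5cv* replicate 1 fell among the WT muscles, and the difference did not pass (exact permutation test, two-sided p = 0.0571, 0.214 adjusted over 5 ratios). Without WT replicate 2 the difference was 0.37 (exact permutation test, two-sided p = 0.114). With 70 arrangements of 4 against 4 the smallest p is 0.0286. The log2 ratio of *Bag3* to *Bag1*, the BAG protein linked to the proteasome route where BAG3 is linked to autophagy, was -0.53, -1.28, -0.30 and -0.09 in WT and -0.38, -0.06, -0.02 and -0.08 in *mdx5cv*. The difference was 0.42 (standard error 0.27; exact permutation test, two-sided p = 0.171, adjusted 0.286), and it was 0.17 without WT replicate 2.

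**Figure D2:**
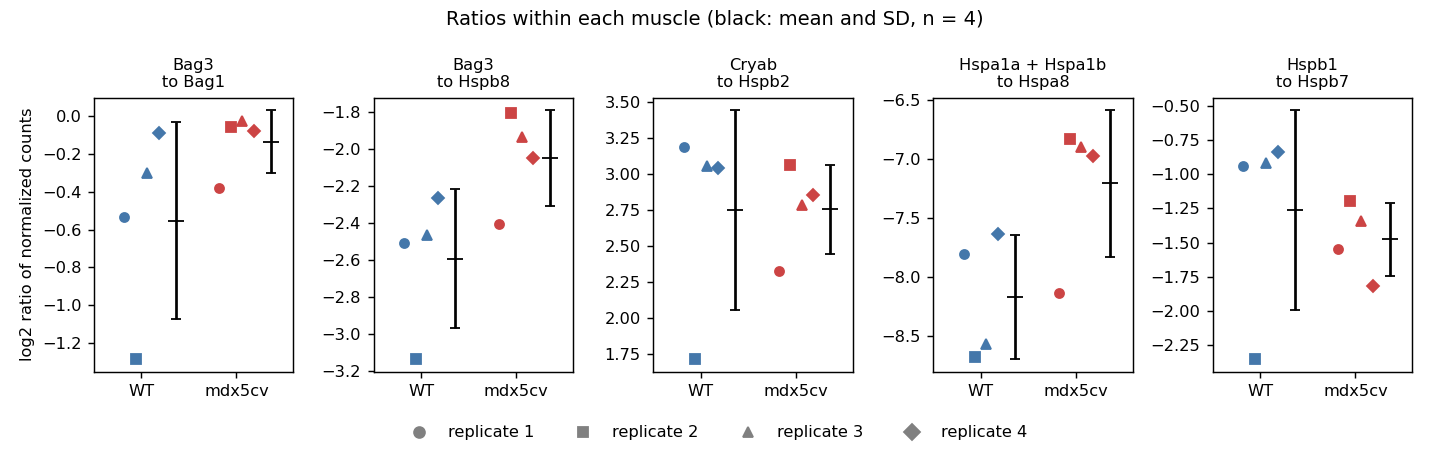
The 5 log2 ratios of normalized counts within each muscle (vertical axes, each with its own range), with WT in blue, *mdx5cv* in red, a marker shape for each replicate number, and the mean and SD of the 4 muscles in black. The groups overlap in all 5 ratios, and WT replicate 2 is the lowest muscle in each of them.

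At the deposited size factors, *Cryab*, *Hspb6*, *Hspb1* and *Hspb2* were called only when WT replicate 2, their lowest WT muscle, was left out. CRYAB, or alphaB-crystallin, binds desmin and actin filaments. Its normalized counts were 2909.8, 926, 3242 and 3332 in WT and 1491, 2442, 2053 and 1774 in *mdx5cv*. Thus 3 WT muscles were above the 4 *mdx5cv* muscles and WT replicate 2 was below them, at 29.3% of the mean of the other 3 WT muscles. With all 8 muscles *Cryab* was at a log2 fold change of -0.28 with a standard error of 0.33 (adjusted p = 0.519), and without WT replicate 2 it was at -0.73 (adjusted p = 0.00250). Over the 19 alternatives the adjusted p of *Cryab* ran from 0.00250 to 0.863.

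*Hspb6*, whose protein HSP20 is a target of the cyclic AMP-dependent kinase, had normalized counts of 4377, 2144, 4581 and 4979 in WT and 2493, 3514, 3231 and 2219 in *mdx5cv*. Again 3 WT muscles were above the *mdx5cv* muscles and WT replicate 2 was below them. Its change in *mdx5cv*, on the log2 scale, was -0.44 (standard error 0.23, adjusted p = 0.149) with all 8 muscles and -0.72 (adjusted p = 0.00298) without WT replicate 2, in a range of 0.00298 to 0.776 over the alternatives. *Hspb6* shares 122 exon bases with *Proser3* on the other strand and 3 with *Lin37*, which had at most 62 and 56 reads in a muscle.

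*Hspb1* encodes HSP25, the mouse form of HSP27, which binds actin. Its normalized counts were 559, 240.2, 659 and 711 in WT and 415, 572, 511 and 528 in *mdx5cv*. Without WT replicate 2, which was at 37.4% of the mean of the other 3, the WT muscles ran from 559 to 711 and the *mdx5cv* muscles from 415 to 572. Its log2 fold change, 0.01 with a standard error of 0.27 (adjusted p = 0.988), became -0.35 (adjusted p = 0.0475) without that muscle, and the adjusted p was between 0.0475 and 0.997 over the alternatives. Of its 100-base windows 44.0% are also in the pseudogene *Hsp25-ps1*, which had between 1 and 6 reads in each muscle.

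*Hspb2*, the neighbour of *Cryab*, encodes a protein that binds the kinase DMPK. It had normalized counts of 319.7, 282, 390.3 and 404 in WT and 297, 292, 298 and 245 in *mdx5cv*. WT replicate 2 was lowest in its group here too, at 75.9% of the mean of the others, and lay among the *mdx5cv* muscles. *Hspb2* was at -0.29 on the log2 scale (standard error 0.13, adjusted p = 0.0988), with an unadjusted p of 0.0481, and at -0.39 (adjusted p = 0.0241) without WT replicate 2, while the alternatives spanned adjusted p-values of 0.0241 to 0.826. The log2 ratio of *Cryab* to *Hspb2* was 3.18, 1.71, 3.05 and 3.04 in WT and 2.32, 3.06, 2.78 and 2.85 in *mdx5cv*. The mean ratio differed by 0.01 (standard error 0.38; exact permutation test, two-sided p = 0.943, adjusted 0.943), and it was -0.34 without WT replicate 2.

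Without WT replicate 2, therefore, 5 of the 10 members were lower in *mdx5cv* and none was higher, where 18.8% of all genes were called lower and 20.1% higher in the same fit. The 5 were *Hspb8*, *Cryab*, *Hspb6*, *Hspb1* and *Hspb2*. All but *Hspb8* were lowest in WT replicate 2 within the WT group, so removing it pushes their fold changes down in itself. Their count is therefore not comparable with the share of all genes. When that muscle was left out under equal totals as well, a fit added after the data were seen, *Cryab* (log2 fold change -0.38, adjusted p = 0.0431) and *Hspb6* (-0.38, adjusted p = 0.0297) were lower, and *Bag3* (0.38, adjusted p = 0.0367) and *Hspb7* (0.57, adjusted p = 0.0285) were higher. In that fit 5.07% of all genes were called lower and 36.1% higher. It did not call *Hspb1* (-0.0038, adjusted p = 0.986), *Hspb2* (-0.044, adjusted p = 0.826) or *Hspb8* (0.014, adjusted p = 0.930). With *mdx5cv* replicate 4, which also stood apart, left out instead, at the deposited size factors, 1 member was lower, *Hspb8*, and 0 were higher. That fit called 4719 of all 13677 genes in either direction, against 5597 with all 8 muscles.

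**Figure D3:**
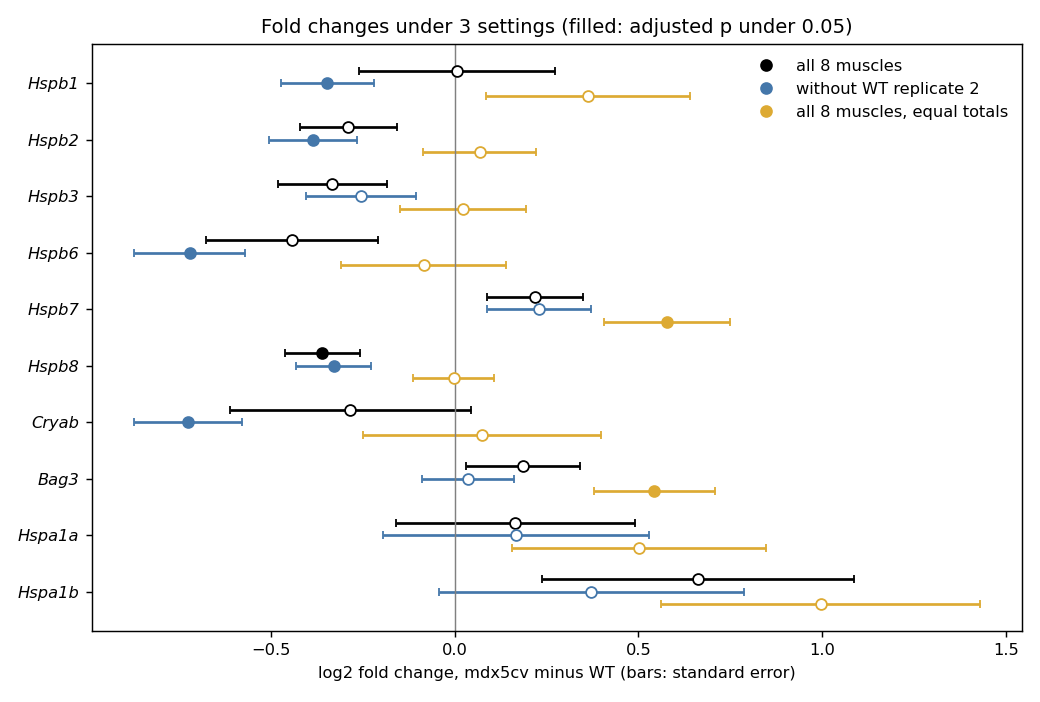
Log2 fold change (*mdx5cv* minus WT, horizontal axis) with its standard error for each member, from limma with all 8 muscles (black), without WT replicate 2 (blue) and with all libraries at equal totals (yellow). Filled points have an adjusted p under 0.05. *Cryab* moves from -0.28 to -0.73 and *Hspb6* from -0.44 to -0.72 when WT replicate 2 is left out, and the yellow points lie to the right of the black ones.

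In *Hspb3* and *Hspb7* that muscle was not low. HSPB3 is found with HSPB2 in a complex of muscle, and *Hspb3* had normalized counts of 133, 177, 174 and 124 in WT and 132, 105, 122 and 117 in *mdx5cv*. WT replicate 2 was the highest of the WT muscles here, at 123% of the mean of the other 3, and WT replicate 4 lay among the *mdx5cv* muscles. The change was -0.33 on the log2 scale (standard error 0.15, adjusted p = 0.0917, unadjusted p = 0.0437). Of the 19 alternatives it passed in 1, without WT replicate 4 (-0.42, adjusted p = 0.0412), where 19.2% of all genes were called lower, and the adjusted p went up to 0.921.

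*Hspb7*, also called cvHsp after its place in heart and skeletal muscle, had normalized counts of 1074, 1230, 1247 and 1270.1 in WT and 1214, 1311, 1298 and 1860.3 in *mdx5cv*. The 3 highest muscles were *mdx5cv*, with replicate 4 at 146% of the mean of the other *mdx5cv* muscles, and *mdx5cv* replicate 1 lay among the WT muscles. Its log2 fold change, 0.22 with a standard error of 0.13 (adjusted p = 0.202), was 0.08 without *mdx5cv* replicate 4. With equal totals it was called at 0.58 (adjusted p = 0.0137, in a range of 0.0137 to 0.534), beside the median of 0.36 for all genes. With equal totals *Bag3* and *Hspb7* were the members called, both higher, where 39.8% of all genes were called higher and 6.0% lower. The log2 ratio of *Hspb1* to *Hspb7* was -0.94, -2.35, -0.92 and -0.84 in WT and -1.55, -1.20, -1.34 and -1.81 in *mdx5cv*, and differed by -0.21 (standard error 0.39; exact permutation test, two-sided p = 0.657, adjusted 0.821). Without WT replicate 2 the 3 WT muscles were all above the 4 *mdx5cv* muscles, by 0.58 on average, at the smallest p that 3 against 4 allow (exact permutation test, two-sided p = 0.0571). The muscle left out was the only WT one not above them, so its removal fixed this separation and this p, which are no support.

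The stress-inducible genes *Hspa1a* and *Hspa1b* were close to the lower limit of measurement. Over all 8 muscles *Hspa1a* had 150 reads and *Hspa1b* 156. *Hspa1a* had normalized counts of 14.9, 16.5, 11.1 and 26.5 in WT and 11.1, 22.6, 20.7 and 22.4 in *mdx5cv*, so the groups covered nearly the same range, with the highest muscle a WT one. The difference was 0.17 on the log2 scale (standard error 0.32, adjusted p = 0.714), with an interval from -0.53 to 0.87, so that no direction was detectable at this depth. *Hspa1b* had 18.3, 6.58, 12.2 and 18.0 in WT and 8.34, 24.5, 29.7 and 30.4 in *mdx5cv*. Its *mdx5cv* replicates 2, 3 and 4 were above all WT muscles, whereas replicate 1 was the second lowest of all 8. Its log2 fold change, 0.66 with a standard error of 0.42 (adjusted p = 0.234, interval -0.25 to 1.58), was 1.07 without *mdx5cv* replicate 1 (adjusted p = 0.0354), the 1 setting in which it was called. The muscle left out was the only *mdx5cv* one not above all WT muscles. Its removal separates the groups in itself, so this call is no support. The log2 fold change of *Hspa1b* was 0.37 without WT replicate 2 (adjusted p = 0.508). In the fit without *mdx5cv* replicate 1, 18.2% of all genes were called higher, and over its 18 alternatives the adjusted p of *Hspa1b* was at most 0.508.

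Set against *Hspa8*, the HSP70 gene expressed at all times, the summed counts of *Hspa1a* and *Hspa1b* gave log2 ratios of -7.81, -8.68, -8.57 and -7.64 in WT and -8.14, -6.83, -6.90 and -6.98 in *mdx5cv*. The mean was higher by 0.96 in *mdx5cv* (standard error 0.41), with *mdx5cv* replicate 1 inside the WT range (exact permutation test, two-sided p = 0.0857, adjusted 0.214). *Hspa8* itself fell by 0.57 on the log2 scale (adjusted p = 0.00196), from 8954 ± 905 to 6038 ± 554 (SD, n = 4), and with equal totals it was at -0.21 (adjusted p = 0.239). Leaving out *mdx5cv* replicate 1, the ratio differed by 1.27, and leaving out WT replicate 2 it differed by 0.80. That *mdx5cv* muscle was the only one inside the WT range, so removing it separates the groups in itself. The p without it, the smallest for 3 against 4 (exact permutation test, two-sided p = 0.0571), was thus fixed by the removal and is no support.

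Per kb of exon, *Hspb8*, *Cryab* and *Hspb6* held the highest levels of the 10 genes in both groups. In WT these were 1876 ± 121, 1759 ± 766 and 1749 ± 555 normalized counts per kb (SD, n = 4), and in *mdx5cv* 1463 ± 129, 1312 ± 275 and 1246 ± 265. Their ranges overlapped one another in both groups. In WT they were followed by *Hspb1* (526 ± 205), *Hspb7* (435 ± 32.2) and *Hspb2* (418 ± 69.4), whose ranges overlapped, then by *Bag3* (239.8 ± 49.2) and *Hspb3* (194 ± 34.8), which overlapped each other, and far below by *Hspa1a* (5.80 ± 2.22) and *Hspa1b* (4.91 ± 1.99). In *mdx5cv* the order was *Hspb7* (513 ± 107) and *Hspb1* (491 ± 64.1), then *Hspb2* (339.7 ± 30.5) and *Bag3* (270.1 ± 38.9), then *Hspb3* (153 ± 14.8), and *Hspa1b* (8.29 ± 3.66) with *Hspa1a* (6.47 ± 1.84).

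The places that *Hspb1* and *Hspb7* and the HSP70 pair exchange are all between genes with overlapping ranges. The summed per-kb level of the 7 small heat shock protein genes was 7110, 4799, 7922 and 8001 in WT and 5069, 6094, 5795 and 5112 in *mdx5cv*, so that 3 WT muscles were above all *mdx5cv* muscles and WT replicate 2 was below them. Within this sum the share of each gene overlapped between the groups. *Hspb8*, *Cryab* and *Hspb6* made up 28.4% ± 8.93, 24.1% ± 7.40 and 24.6% ± 3.55 of it in WT and 26.7% ± 3.66, 23.6% ± 2.96 and 22.4% ± 2.83 in *mdx5cv* (SD, n = 4). In WT replicate 2, *Hspb8* was 41.7% and *Cryab* 13.0% of the sum.

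**Figure D4:**
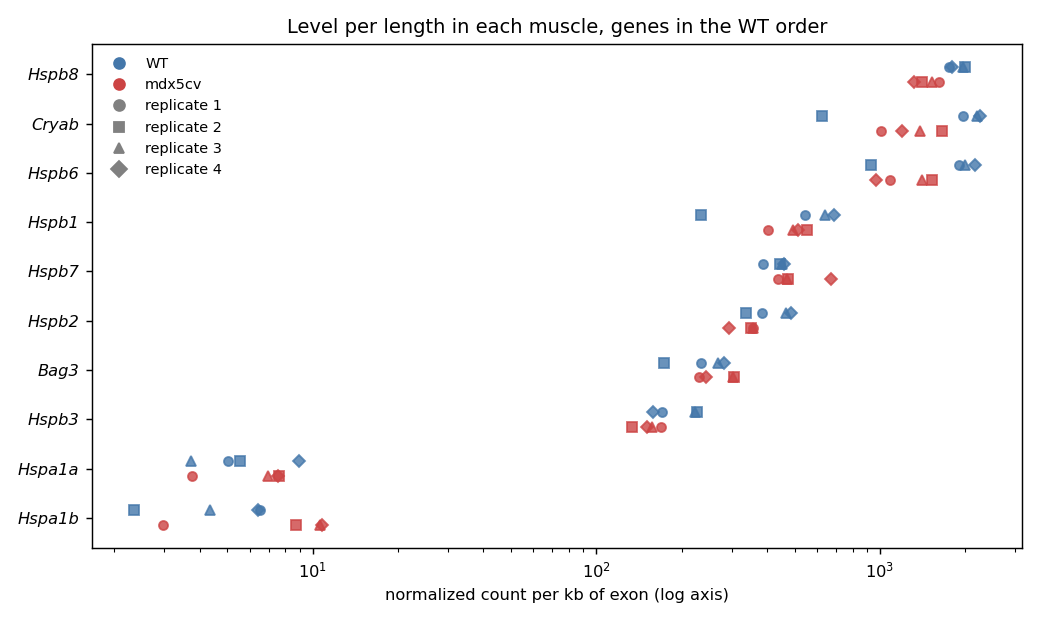
Normalized count per kb of exon (horizontal log axis) of each gene in each muscle, with genes in the order of their WT mean, WT in blue and *mdx5cv* in red, and a marker shape for each replicate number. *Hspb8*, *Cryab* and *Hspb6* lead in both groups, and *Hspa1a* and *Hspa1b* lie below 12 per kb in all muscles.

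In WT replicate 2 the members split. *Cryab*, *Hspb1*, *Hspa1b*, *Hspb6*, *Bag3* and *Hspb2* were below all other WT muscles, at 29.3%, 37.4%, 40.7%, 46.2%, 65.8% and 75.9% of the mean of the other 3, whereas *Hspb3* and *Hspb8* were above all others, at 123% and 109%, and *Hspb7* and *Hspa1a* were within their range. A pair of HSP90-related genes was also low there, though the HSP90 genes did not move together. *Hsp90ab1*, the HSP90 gene expressed at all times, was at 42.2% of the mean of the other 3 WT muscles, and *Fkbp4*, an HSP90 co-chaperone named here after its values were seen, was at 36.9%. By contrast, *Trap1* was above the other WT muscles there (1350 against 1036 to 1066), and *Hsp90aa1* was within their range (338 against 299 to 378). With all muscles kept, *Hsp90ab1* had a log2 fold change of -0.16 in limma (adjusted p = 0.617) and was not called. Without WT replicate 2 it was at -0.47 (limma, adjusted p = 0.00526). The muscle left out was the only WT one not above all *mdx5cv* muscles for *Hsp90ab1*. Removing WT replicate 2 separates the groups in itself, so this call is no support. The summed markers of mature fibers in this muscle were 935263, against 1089337 to 1157583 in the other WT muscles. These markers did not all move together. *Myh4* (321431 against 468316 to 516258), *Acta1*, *Tnnt3* and *Pvalb* were lowest there within WT. *Ckm* was highest there (213844 against 170803 to 180375), and *Myh1* was within the range of the others. The part of tissue makeup in these differences was not tested.

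Beyond the members, 6 lists of related genes were counted beside the 40.9% of all genes called, 20.9% as higher and 20.1% as lower. With equal totals, where the median of all genes was 0.36, these shares were 39.8% higher and 6.0% lower. Of 10 BAG genes and partners of the BAG3 route, 4 (40%) were lower and none was higher, and the list had a median of -0.26 on the log2 scale against 0.00 for all genes tested. They were *Hspa8* (-0.57), *Bag2* (-0.43), *Bag4* (-0.40) and *Stub1* (-0.37), the last of which encodes CHIP, the ubiquitin ligase that marks clients of HSP70. *Bag2*, *Bag4* and *Stub1* lost their calls in 12, 9 and 6 of 19 alternatives. Their partners *Synpo2*, at 0.01, and *Sqstm1*, at -0.17, were not called. All 4 calls were lost with equal totals, where 2 other genes of the list were called, both higher.

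Among 15 heat shock factors and genes of the HSF1 response, 7 (46.7%) were lower and none was higher, and the median was -0.22. The largest changes were those of the mitochondrial chaperonin *Hspe1* (-0.86, adjusted p = 0.000107) and *Hspd1* (-0.68, adjusted p = 0.000325), followed by the calcyclin-binding protein gene *Cacybp* (-0.59) and *Chordc1* (-0.54), an HSP90 cofactor. *Hsf1* itself was lower by 0.39 (standard error 0.14, adjusted p = 0.0379), but it lost the call in 10 of 19 alternatives. With equal totals it was at -0.04 (adjusted p = 0.870), and its adjusted p ran up to 0.103 when each muscle was left out. *Dnajb1*, *Hsph1* and *Hsp90aa1*, which HSF1 induces as it does *Hspa1a*, had log2 fold changes of 0.18, -0.13 and 0.26 and were not called. With equal totals the list had 3 genes higher and 2 lower, and *Hsp90aa1* was among the higher ones (0.62, adjusted p = 0.0167).

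Of 15 other HSP70 and J-domain genes, 6 were lower and 1 was higher (46.7% called), with a median of -0.28. *Hspa1l*, a neighbour of *Hspa1a* that is best known from testis, had the largest change of all genes in the chaperone lists, from 178, 231, 232 and 186 in WT to 49.1, 57.5, 78.3 and 48.7 in *mdx5cv*. The groups did not overlap, and the log2 fold change was -1.82 (standard error 0.17, adjusted p = 6.33e-06) and -1.47 with equal totals. *Hspa2* was higher by 0.89 (adjusted p = 0.0247), and by 0.56 without WT replicate 2 (adjusted p = 0.0384), but the call was lost without *mdx5cv* replicate 2 (adjusted p = 0.0671), without *mdx5cv* replicate 3 (adjusted p = 0.0582) and without the variance trend. By contrast, the mitochondrial HSP70 gene *Hspa9* fell by 0.71 and its J-domain partner *Dnaja3* fell by 0.66. Equal totals left 4 genes of this list called, 1 higher and 3 lower.

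Of 14 genes of HSP90, myosin chaperones and the TRiC chaperonin, 5 (35.7%) were lower and none higher, with a median of -0.21. *Smyd1*, which acts on myosin folding, was at -0.63 (adjusted p = 0.00261), the mitochondrial HSP90 gene *Trap1* at -0.49, and the TRiC subunits *Cct6a* and *Cct5* at -0.45 and -0.40. Equal totals ended these calls and gave 2 genes higher. Leaving out WT replicate 2 instead raised the count of lower genes to 8, in a fit that called 18.8% of all genes lower. The genes gained, *Hsp90ab1*, *Unc45b* and *Cct7*, were lowest in WT replicate 2 within the WT group. Removing it pushes their fold changes down in itself, so this count is not comparable with the share of all genes. The remaining small heat shock protein genes were near or at 0. *Hspb9* had no read in any muscle, *Cryaa* and *Odf1* had 1 read each, and *Hspb11*, whose protein is now placed in intraflagellar transport, had a log2 fold change of 0.31 (adjusted p = 0.613).

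**Figure D5:**
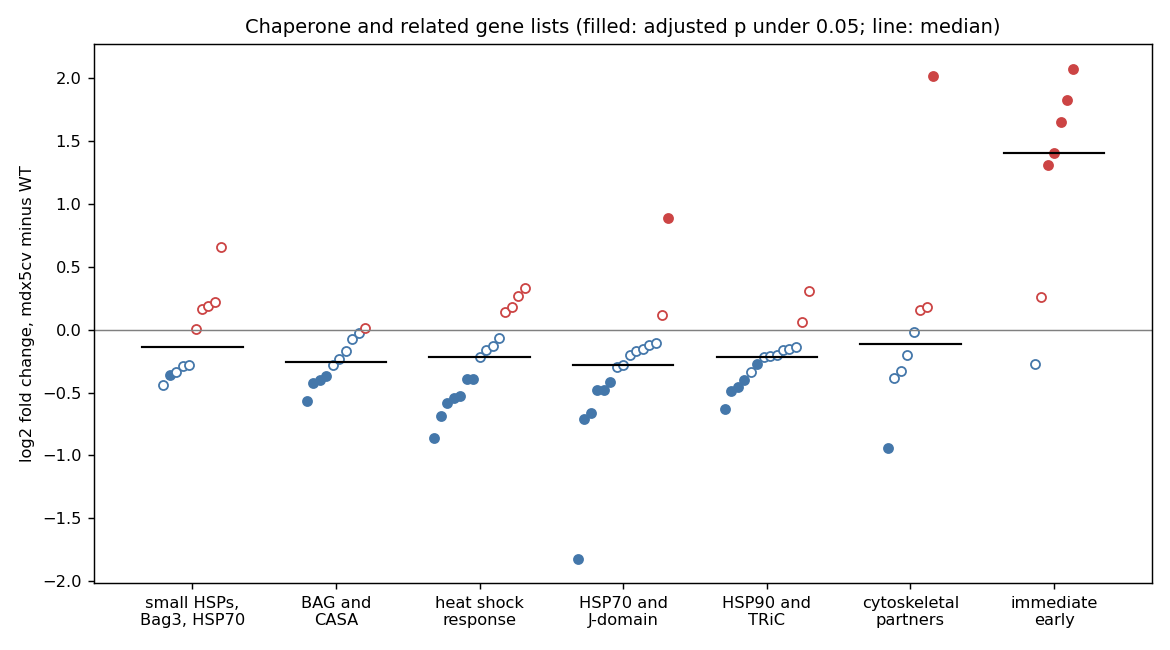
Log2 fold change (*mdx5cv* minus WT, vertical axis) of each tested gene in the members (first column) and in the 6 other lists, with filled points for an adjusted p under 0.05, red above 0 and blue below, and a line at the median of each list. At the deposited size factors, which are plotted, the called chaperone genes lie below 0 except for *Hspa2*, though with equal totals most of these calls are lost, and 5 of the 7 immediate early genes lie above 1.

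The lists also held genes whose proteins these chaperones bind. Of 8 cytoskeletal and Z-disc genes, 1 was higher and 1 lower (25% called). *Vim*, the vimentin of immature fibers and of many mononuclear cells, rose by 2.02 (adjusted p = 5.86e-06) and *Myot*, the Z-disc protein myotilin, fell by 0.94 (adjusted p = 0.000294). *Des*, the desmin gene and a client of CRYAB, was at 26846 ± 1316 in WT and 26453 ± 1360 in *mdx5cv* (SD, n = 4; log2 fold change -0.02, adjusted p = 0.909), and *Flnc*, the filamin that BAG3 handles, was at 0.18 (adjusted p = 0.230). With equal totals, 4 of the 8 were higher and 1 was lower, in a fit that called 39.8% of all genes higher, and *Des* (0.34, adjusted p = 0.0246) and *Flnc* (0.54, adjusted p = 0.00280) were among the higher ones.

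Immediate early genes respond within minutes to acute stress and to the handling of tissue. Of 8 such genes, 7 were tested and 5 (71.4%) were higher in *mdx5cv*, against 20.9% of all genes. The 5 included *Junb* at 2.08 (adjusted p = 1.83e-06), *Egr1* at 1.83, *Fos* at 1.65 and *Atf3* at 1.40, and all 5 were also called with equal totals and without WT replicate 2. *Fosb* had at most 17 reads in a muscle and was not tested. In WT replicate 2 the normalized count of *Fos* was 27.4, within the WT range of 26.4 to 41.3.

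Markers of the cells in the muscle moved along with the groups. The 6 markers of mature fast fibers, the bulk of a TA muscle, were all present in each muscle and summed to between 935263 and 1157583 normalized counts in WT and between 678630 and 1049511 in *mdx5cv*. Of these 6, 2 were lower, *Ckm* by 0.75 and *Tnnt3* by 0.63, and none was higher. These calls were lost in 5 and 7 of 19 alternatives. All 6 markers of regenerating fibers were higher, with summed levels of 198 to 229 in WT and 2514 to 9398 in *mdx5cv*, and of these *Mymk* and *Chrng* had no read in 3 of the 4 WT muscles and 1 read in the other. Of the 5 slow fiber markers, 4 were higher (276 to 529 against 1128 to 2518).

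Markers of cells outside the fibers differed too. All 6 macrophage markers were higher in *mdx5cv* (481 to 746 against 3565 to 8548), as were 4 of 5 fibroblast markers (5196 to 7870 against 17446 to 31390). All 4 endothelial markers were lower, at 2489.9 to 3058 in WT and 1528 to 1943 in *mdx5cv*, and 2 of the 4 with equal totals. Of 4 smooth muscle markers, 3 were tested, of which 2 were lower and 1, *Acta2*, was higher. The sum of all 4 was 1017 to 1381 in WT and 860 to 1368 in *mdx5cv*. Of 4 Schwann cell markers, 3 were tested and 2 were lower (176 to 349 against 67.9 to 130.2), and apart from *Mymk* and *Chrng* no marker was without reads in a muscle. The muscle with the highest *Hspb7*, *mdx5cv* replicate 4, had the highest sums of regenerating fiber, slow fiber, macrophage and fibroblast markers and the lowest sum of mature fiber markers. What part of the members' values comes from these cells was not tested.

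For each member, the genes whose log2 levels ran most parallel to it over the 8 muscles were looked for among the 7633 genes that averaged at least 100 normalized counts. These coefficients describe 8 libraries whose group and depth the genes share, and carry no test. WT replicate 2 was a shared low muscle for *Cryab* (29.3% of the mean of the other WT muscles) and *Hsp90ab1* (42.2%). The coefficients were not taken without it. *Cryab* ran closest to *Hsp90ab1* (Pearson r = 0.98) and next to *Rhbdd3*, *Hspb1* to *Pfdn2*, a subunit of the chaperone prefoldin (0.98), and *Rps15*, and *Hspb6* to *Mrpl15* (0.98) and *Denr*. *Hspb8* was closest to *Cops8* (0.99) and *Tox4*, *Bag3* to *Gpx3* (0.98) and *Sspn*, and *Hspb2* to *Ctnnbip1* (0.97) and *Sel1l3*. For *Hspb3* these were *Ube2j2* (0.97) and *Pex13*, and for *Hspb7* *Necap2* (0.97) and *Pea15a*. *Hspa1b* was closest to *Flnc* (0.92) and *Atp9a*, and *Hspa1a*, the member with the fewest reads, to *Adamtsl3* (0.91) and *Tango6*.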

How the data were processed

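Per the labels, total RNA of whole TA muscles was made into stranded libraries after depletion of ribosomal RNA, and the submitters' processing notes name Trim Galore 0.6.4, STAR 2.6.0c, featureCounts, DESeq2 1.26.0 and mm10. The authors deposited 1 signal per gene and muscle, the read count divided by a size factor. Whole reads were recovered for 100% of the values (tolerance 0.01 reads). Whether the counting used strand is not given in the sources used here.

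Groups were compared with limma 3.58.1 (variance trend, two-sided, Benjamini-Hochberg over all genes tested) on log2(normalized count + 1), for genes with a mean of at least 10. The alternatives were pseudocounts of 0.1 and 10, no filter or a minimum of 10 in all samples, scaling by TMM or to equal totals, a fit without the trend, a replicate block, each muscle left out, edgeR 4.0.16 and DESeq2 1.42.0 on the recovered reads. The fit with equal totals and without WT replicate 2 was added after the data were seen. On simulated data all 3 tools recovered 100% of 200 changed genes over 13625 genes. Of the unchanged genes, limma called 6, edgeR 11 and DESeq2 15. Recovery of differences as small as those of the members was not tested. Reads of replicates differed by 9.55 to 43.2 chi-square per degree of freedom, so all 8 were kept as separate libraries. Members, lists and markers were chosen with earlier results of these data known. Text names the members, *Dmd*, overlapping genes, both genes of each ratio, up to 4 called genes of each list with the largest change, list genes at 0, and the 2 genes most like each member. Other list genes are named after their values were seen. Sequences are from RefSeq (GRCm38.p6).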

Additional observations from a re-analysis of the deposited data

Results flagged for a closer look

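Of 30 sets of 4 muscles (10 members and 5 log2 ratios in each group), 9 held a muscle whose gap to the nearest of the others was above Dixon's 95% critical value, taken as a share of the range. Chance alone flags about 1 set in 20, or 1.5 of 30, and the sets share muscles and genes. WT replicate 2 was low in 4 of them. On the scale of log2(normalized count + 1) it was at 9.86 for *Cryab* (11.51 to 11.70 in the other WT muscles) and at 11.07 for *Hspb6* (12.10 to 12.28), and its log2 ratio was 1.71 for *Cryab* to *Hspb2* (3.04 to 3.18) and -2.35 for *Hspb1* to *Hspb7* (-0.94 to -0.84). The muscle *mdx5cv* replicate 1 was low in another 4. It was at 3.60 for *Hspa1a* (4.44 to 4.56 in the other *mdx5cv* muscles) and at 3.22 for *Hspa1b* (4.67 to 4.97), with log2 ratios of -0.38 for *Bag3* to *Bag1* (-0.08 to -0.02) and -8.14 for *Hspa1a* plus *Hspa1b* to *Hspa8* (-6.98 to -6.83). The last was *mdx5cv* replicate 4, at 7.94 for *Hspb2* (8.20 to 8.22).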

How the results depend on the processing

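Most settings left 1 member called, *Hspb8*, and the count of members moved with the scaling and with single muscles. With equal totals 2 members were higher and 0 lower. With equal totals and without WT replicate 2, 2 were higher and 2 lower. Leaving out each muscle gave 0 to 1 higher (1 without *mdx5cv* replicate 1) and 1 to 5 lower (5 without WT replicate 2, 2 without WT replicate 4). Over all genes, 6059 of 28501 were called with no filter and 5173 of 13677 without the variance trend, against 5597 of 13677 in the report. Called genes of the BAG list fell from 4 to 2 with no filter, with equal totals, without the variance trend and with DESeq2, and to 1 with equal totals and without WT replicate 2. Leaving out each muscle gave 1 to 4, with 1 without WT replicate 4 or *mdx5cv* replicate 4 and 2 without WT replicate 1 or 3 or *mdx5cv* replicate 1 or 2. With equal totals, alone and without WT replicate 2, the HSP70 list had 4 called genes (7 in the report), the HSP90 list 2 (5 in the report, 4 to 8 when each muscle was left out) and the cytoskeletal list 5 (2 in the report). The summed counts of the HSF1 and immediate early lists stayed within 1.5 times in all settings, but with equal totals the HSF1 list went from 0 higher and 7 lower to 3 higher and 2 lower.

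The log2 fold change of *Hspb1*, 0.01, was -0.010 with TMM factors, -0.093 with edgeR, -0.099 with DESeq2 and -0.0038 with equal totals and without WT replicate 2, and ran from -0.35 to 0.17 when each muscle was left out. With equal totals *Hspb2* was at 0.068, *Hspb3* at 0.023, *Cryab* at 0.075, *Hsp90ab1* at 0.20, *Fkbp4* at 0.14, *Hsph1* at 0.23, *Sqstm1* at 0.19, *Bag1* at 0.13 and *Des* at 0.34. With equal totals and without WT replicate 2, *Hspb3* was at 0.087, *Hspb8* at 0.014, *Cct5* at 0.0093, *Hsph1* at 0.16, *Sqstm1* at 0.20, *Bag1* at 0.21 and *Des* at 0.34. *Synpo2*, at 0.01, was at -0.0061 with TMM factors and from -0.058 to 0.061 when each muscle was left out, while *Des* ran from -0.057 to 0.0015. *Hspa1a* ran from -0.012 to 0.39 when each muscle was left out. The log2 ratio of *Cryab* to *Hspb2* was -0.0021 with a pseudocount of 10 and -0.34 to 0.15 when each muscle was left out. The causes were not tested.

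The replicate numbers were not taken as a pairing of the muscles. The correlations of same-numbered muscles' deviations were 0.05, 0.03, 0.07 and 0.15, and 2 of the 4 WT muscles were most like another number. Correlations this weak show no clear pairing but cannot exclude one. With the replicate block *Hspb8* stayed at -0.36 (limma, adjusted p = 0.0175) as the 1 member called, and it changed no call of a member or named list gene. Its exact sign-flip test of the ratios cannot go below 0.125. Depth limits *Hspa1a* and *Hspa1b*, with at most 28 and 38 reads in a muscle.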
